A study of Mus musculus with 9 samples.

Results

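Gap43 encodes GAP-43, a phosphoprotein of the inner face of the growth cone membrane, and it was set beside 4 genes of related proteins, Basp1, Marcks, Marcksl1 and Nrgn. The members were the 5 genes, read through every probe set whose platform gene symbol is 1 of these 5 genes, out of 12393 genes named on the array. That gave 13 probe sets out of 22626 that are not controls. Gap43, Basp1 and Nrgn had 1 probe set each, Marcks had 6 and Marcksl1 had 4. All 13 passed the filter on low signal that left 13576 probe sets for testing.

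RNA came from layer IV of the barrel cortex, the somatosensory area where whisker input forms a map of neuron clusters, cut out by laser microdissection from C57BL/6 mice at postnatal day 5. They carried a wild-type Gap43 gene (WT), were heterozygous for its knockout (HZ) or lacked it (KO), with 3 mice and 3 arrays of each genotype, so n = 3 per genotype throughout and 9 arrays in all. The labels point to an earlier description of the line, and which part of the gene was deleted is not analysed here. No treatment is named in the labels. All signals below are MAS5 intensities that the authors scaled to a common level on every array, and changes are differences of log2(signal + 16).

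GAP-43 and neurogranin, the product of Nrgn, share a short IQ domain that holds calmodulin when calcium is low and releases it when calcium rises or protein kinase C phosphorylates the domain. GAP-43 lies in axons and growth cones and is held at the membrane by palmitoyl groups, whereas neurogranin lies in dendrites and their spines. Basp1 (also called CAP-23), Marcks and Marcksl1 encode myristoylated proteins with a basic region that binds the membrane lipid phosphatidylinositol 4,5-bisphosphate, calmodulin or both, and that is released when protein kinase C phosphorylates it. In developing cortex these proteins tie calcium and kinase signals to the actin skeleton beneath the membrane.

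RefSeq promoter sequences (GRCm38.p6) were at hand for 3 of the 5 genes, Marcksl1, Nrgn and Basp1, and the 250 bases before each transcription start are shown so that the start regions of these related genes can be read beside their signals. The sequences run 5′ to 3′ on the gene's strand, and capitals mark the CCAAT box, the GC box (letters GGGCGG) and the TATA box (letters TATAAA) on either strand, overlapping matches included.
Marcksl1, chr4:129513331-129513580, plus strand: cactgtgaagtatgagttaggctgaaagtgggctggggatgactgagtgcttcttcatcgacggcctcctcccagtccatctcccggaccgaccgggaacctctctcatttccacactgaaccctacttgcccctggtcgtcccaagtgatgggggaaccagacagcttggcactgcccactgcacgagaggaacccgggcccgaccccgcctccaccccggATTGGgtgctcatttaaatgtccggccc
Nrgn, chr9:37552746-37552995, minus strand: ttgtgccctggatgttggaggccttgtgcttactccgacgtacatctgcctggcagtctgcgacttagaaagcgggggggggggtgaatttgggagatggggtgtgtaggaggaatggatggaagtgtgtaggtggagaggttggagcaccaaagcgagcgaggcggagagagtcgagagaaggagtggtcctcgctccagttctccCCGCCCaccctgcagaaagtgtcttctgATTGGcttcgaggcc
Basp1, chr15:25413765-25414014, minus strand: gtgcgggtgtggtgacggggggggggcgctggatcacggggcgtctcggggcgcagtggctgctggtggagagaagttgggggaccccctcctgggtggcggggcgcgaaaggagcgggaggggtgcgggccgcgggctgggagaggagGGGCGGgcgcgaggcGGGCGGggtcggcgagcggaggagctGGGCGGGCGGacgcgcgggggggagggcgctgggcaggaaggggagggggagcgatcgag
The Basp1 window had a GC content of 78.8% and 4 matches of the GC box, with no match of the CCAAT or the TATA box. The Nrgn window had a GC content of 58.4%, with 1 CCAAT box and 1 GC box, and the Marcksl1 window 60.4%, with 1 CCAAT box. Over 32851 RefSeq promoters of the same length the median GC content was 52.4%, and the CCAAT box occurred in 33.8%, the GC box in 32.7% and the TATA box in 12.4% of them. The letters CANNTG, which are not marked, occurred once in the Marcksl1 and in the Nrgn window, not in the Basp1 window, and in 66.2% of all promoters. A match describes the letters only.

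Across the tested probe sets, arrays of the same genotype correlated at a median of 0.963 and arrays of different genotypes also at 0.963, so genotype did not separate the arrays as wholes. The log2 ratio of 3' to 5' control signal for the housekeeping genes Actb and Gapdh, which moves with RNA integrity and amplification, lay between 3.31 and 3.96 on 8 arrays and at 4.72 on HZ 2. Rorb and Cux1, genes of layer IV neurons, were detected at a mean signal of 489 and 1724 over the 9 arrays, where the lowest mean kept for testing was 118. Rspo1 was below that limit at 77.5. The neuronal kinase gene Camk2a and the myelin gene Mog were near 0, at mean signals of 3.27 and 4.44. Other neuronal genes were not, such as Snap25 at 5269 and Tubb3 at 3372. Nor were other genes of the oligodendrocyte lineage, such as Olig1 at 1922 and Mbp at 524. Among astrocyte genes Glul stood at 4545 and Gja1 at 3560, whereas Slc1a2 was below the limit at 79.8. Precision throughout is limited by the number of arrays.

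Gap43 can check the KO labels, but not the HZ labels against the WT labels. On the WT arrays its signal was 7089, 4746 and 4294, on the HZ arrays 5015, 5039 and 4389, and on the KO arrays 979, 1930 and 1299. The KO arrays lay apart from and below the other 6, whereas the HZ arrays fell inside the WT range. The mean KO signal was 26.1% of the WT mean, and 21.2 to 31.0% when any 1 array was left out. Gap43 fell in KO against WT by 1.95 on the log2 scale (SE 0.23, limma adjusted p = 0.0173), and in KO against HZ by 1.82 (SE 0.23, limma adjusted p = 0.0362). It was the 1 probe set that passed in each of these comparisons, so that 0.00737% of the tested probe sets passed in KO against WT and 0.00737% in KO against HZ. A probe set outside the deleted part would not measure the loss of the protein, and whether this one lies inside it was not tested.

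The KO signal of Gap43 was not at the floor of the arrays. Ranked among the probe sets of its own array, Gap43 stood at the 84.6th, 91.8th and 88.2nd percentile on the KO arrays, against the 96.8th to 98.6th on the WT and the 97.0th to 97.5th on the HZ arrays. The call in KO against WT was lost when WT 1, WT 2, HZ 2 or KO 3 was left out, with limma adjusted p-values of 0.0694, 0.0513, 0.0579 and 0.0742. That against HZ was lost when WT 2, KO 1, KO 3 or any of the HZ arrays was left out, with limma adjusted p-values between 0.0504 and 0.174. The change itself stayed between -2.20 and -1.72 against WT and between -2.08 and -1.59 against HZ.

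Heterozygous mice carry a single intact copy of Gap43, and their signal stood near that of WT. The HZ mean was 89.5% of the WT mean, and the log2 change was -0.13, with a 95% interval from -0.63 to 0.37 (adjusted p = 0.915 with limma). That comparison called 0% of the tested probe sets, with 844 of them at an unadjusted p below 0.05. On the linear scale the mean of the 3 HZ arrays lay 85.9% of the way from the KO mean to the WT mean, and all 3 exceeded the linear midpoint of 3390. Leaving out 1 array at a time gave 75.6 to 109%, the highest value without WT 1, which had the highest Gap43 signal of the 9 arrays. Without WT 1 the HZ mean was 106.5% of WT, and the HZ change turned to 0.09. The log2 midpoint of WT and KO lies below the linear midpoint, so a signal at the linear midpoint would also exceed it. On the log2 scale HZ exceeded the midpoint of WT and KO by 0.85 (SE 0.20, 95% interval 0.41 to 1.28). Part of that 0.85 is the gap between these midpoints. The contrast of HZ with the log2 midpoint did not pass over all probe sets (limma adjusted p = 0.719). That contrast called 0% of the tested probe sets, with 909 at an unadjusted p below 0.05.

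**Figure D1:**
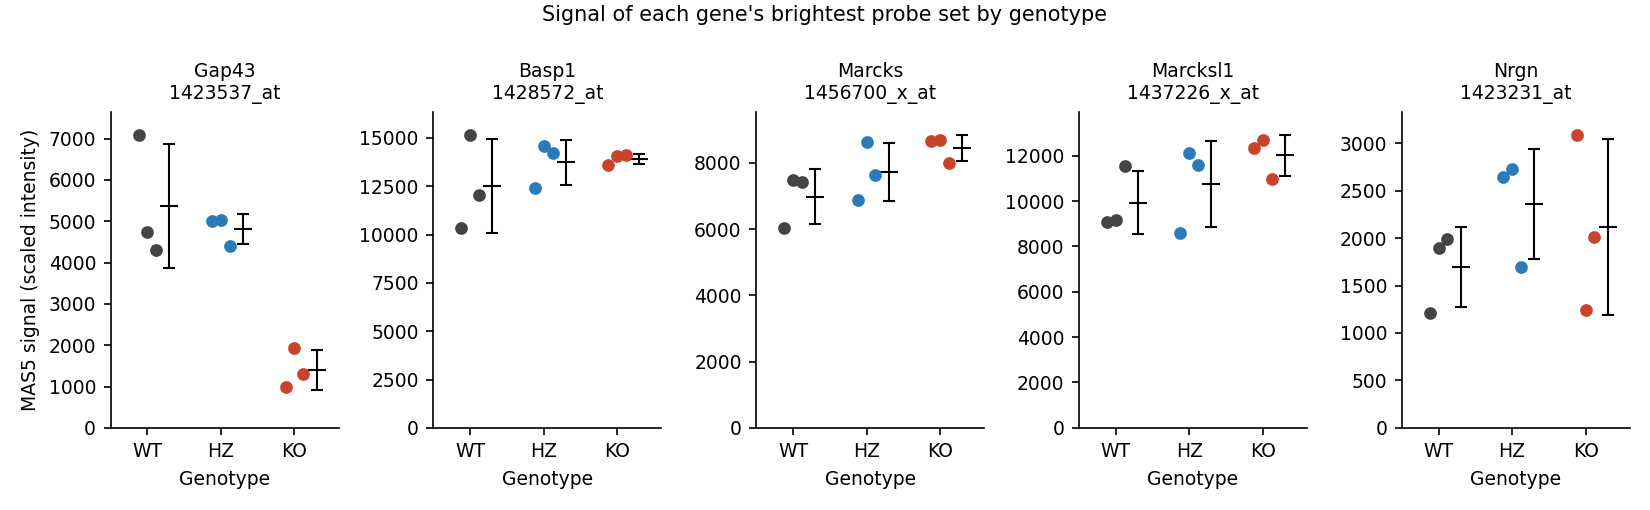
MAS5 signal (vertical axis, scaled intensity, linear from 0) of the brightest probe set of Gap43, Basp1, Marcks, Marcksl1 and Nrgn by genotype (horizontal axis), with 1 point per array and bars for the mean ± SD (n = 3). The 3 KO arrays of Gap43 lie between 979 and 1930, below the other 6 at 4294 or more, while the genotypes overlap for Basp1, Marcksl1 and Nrgn, and for Marcks the KO arrays lie above WT.

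No probe set of the 4 related genes passed the threshold in the direction of Gap43. Of their 12 probe sets, 10 were above 0 in KO against WT, with a median log2 change of 0.27, and 10 were above 0 in HZ against WT, with a median of 0.15. Over all tested probe sets the medians were 0.02 and 0.03, with 53.7% and 55.3% above 0. None passed in either direction in KO against WT, HZ against WT or KO against HZ, where the smallest limma adjusted p-values were 0.361, 0.789 and 0.450. At an unadjusted p below 0.05 there were 4 of the 12 in KO against WT, where all tested probe sets had 1090 of 13576 (8.03%). In HZ against WT there was 1 of the 12, where all tested probe sets had 844 of 13576 (6.22%). Both comparisons use the same WT arrays, and probe sets of 1 gene read the same transcripts, so these counts are not separate observations.

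The count above 0 in KO against WT ranged from 8 without KO 2 to 12 without WT 3, with medians between 0.20 and 0.36. In HZ against WT it was 7 without HZ 2, the array whose 3'/5' ratio stood apart, and its median there was 0.04. With the 3'/5' ratio fitted alongside genotype it was 10, with a median of 0.11. It was 6 when the arrays were weighted by their quality, and 11 without WT 3, where the median was 0.26, or with quantile normalization. With arrays set to 1 median it was 9, with a median change of 0.06. Fewer cells of a type and less RNA per cell cannot be told apart in tissue samples of this kind.

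**Figure D2:**
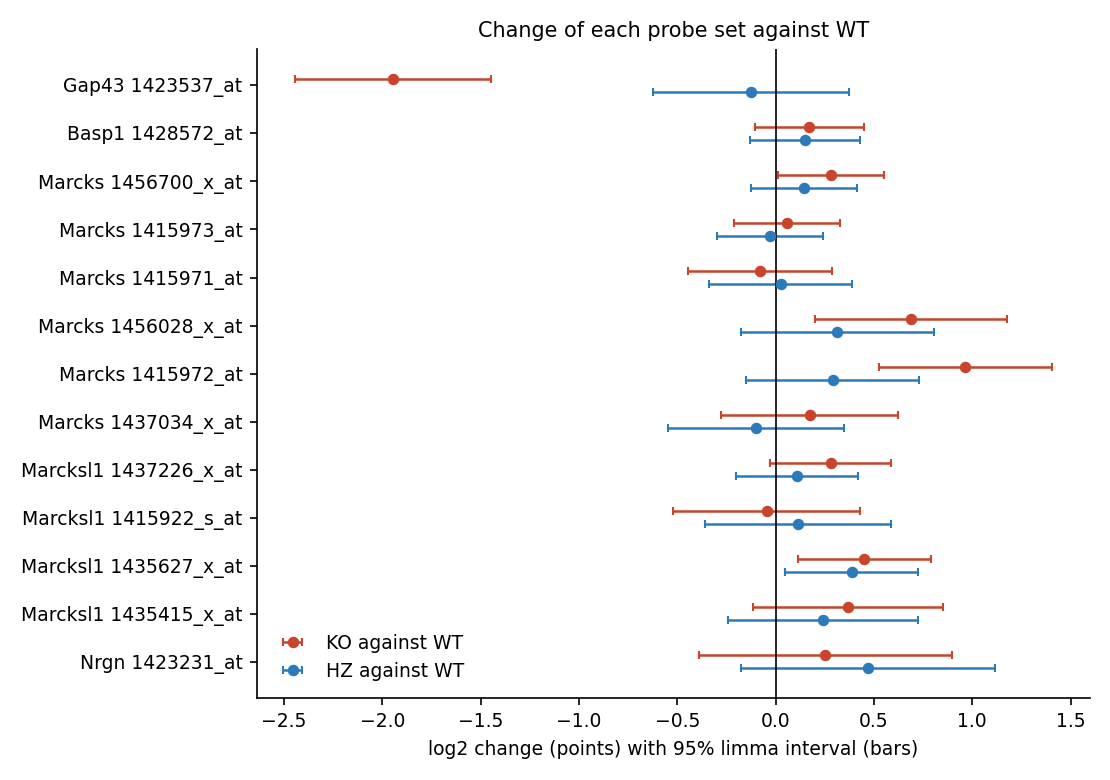
Log2 change against WT (horizontal axis, points) with its 95% limma interval (bars) for each of the 13 probe sets (vertical axis), KO in red and HZ in blue. Gap43 in KO stands at -1.95, whereas the 12 probe sets of the other genes lie between -0.08 and 0.97 in KO and between -0.10 and 0.47 in HZ.

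Basp1 encodes the brain acid soluble protein that, like GAP-43, gathers at lipid-rich patches of the growth cone membrane. Its signal was 10359, 15150 and 12019 in WT, 12416, 14558 and 14219 in HZ, and 13618, 14035 and 14098 in KO. The WT arrays spanned both other groups, and the KO arrays lay close together (13917 ± 261, SD, n = 3, against 12509 ± 2433 in WT). The change in KO was 0.17 on the log2 scale (95% interval -0.11 to 0.45, limma adjusted p = 0.771), a ratio of KO to WT of 1.13 with an interval of 0.928 to 1.37. In HZ it was 0.15 (interval -0.13 to 0.43, limma adjusted p = 0.837). Changes of Basp1 within these bounds could not be told from 0 with these arrays.

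Marcks encodes the myristoylated alanine-rich substrate of protein kinase C, and its 6 probe sets had KO changes against WT from -0.08 to 0.97. Probe set 1415972_at read 673, 647 and 930 in WT, 837, 847 and 1059 in HZ, and 1899, 1386 and 1183 in KO. All 3 KO arrays lay above the other 6, and the HZ arrays overlapped WT. KO was 1.95-fold higher than WT (log2 change 0.97, 95% interval 0.53 to 1.41), which did not pass over all probe sets (limma adjusted p = 0.361). Against HZ the log2 change was 0.67 (limma adjusted p = 0.450) and HZ against WT gave 0.29 (limma adjusted p = 0.812). The KO change kept its sign in every alternative run, between 0.78 and 1.13, and passed in none, with adjusted p-values from 0.196 to 0.687.

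The probe set 1456028_x_at read 1210, 1085 and 1260 in WT, 1222, 1953 and 1344 in HZ, and 2666, 1866 and 1418 in KO. Here too every KO array exceeded every WT array, while HZ 2 lay among the KO arrays. The log2 change was 0.69 in KO (limma adjusted p = 0.518) and 0.31 in HZ (limma adjusted p = 0.819).

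The brightest Marcks probe set, 1456700_x_at, read 6026, 7487 and 7438 in WT, 6882, 8621 and 7650 in HZ, and 8653, 8705 and 7999 in KO. Its KO arrays also lay above all WT arrays, at a smaller distance, with a log2 change of 0.28 (limma adjusted p = 0.612), and its HZ change was 0.14.

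The other 3 Marcks probe sets showed overlapping genotypes. Probe set 1415973_at read 6149, 5259 and 6902 in WT and 5808, 6946 and 6235 in KO, a difference of 0.06 on the log2 scale (95% interval -0.21 to 0.33), and its HZ arrays lay at 5964, 5892 and 5969. It was among the steadiest, with a residual SD of 0.14 that stood at the 10.9th percentile of all tested probe sets. Probe set 1415971_at had a KO change of -0.08 (interval -0.44 to 0.29) and 1437034_x_at one of 0.17 (interval -0.28 to 0.62). The signs of 1415973_at, 1415971_at and 1437034_x_at turned under some alternatives, in KO against WT and in HZ against WT.

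Probe sets 1415971_at, 1415972_at and 1415973_at are annotated to 1 shared sequence record, and for the other 3 the annotation gives none, so where each lies on the transcript was not analysed here. Over the 9 arrays the 15 pairs of Marcks probe sets correlated at a median of 0.28, from -0.18 to 0.81, against a median of 0.68 for the 6 pairs of Marcksl1, from 0.46 to 0.81. The log2 ratio of 1415972_at to the brightest probe set, a comparison within each array, was -3.13, -3.50 and -2.98 in WT, -3.02, -3.32 and -2.83 in HZ, and -2.18, -2.64 and -2.74 in KO. The KO arrays did not overlap the other 6. The KO ratio was 0.68 higher than WT (2-sided exact permutation p = 0.1, the smallest that 3 arrays against 3 allow, and 0.48 after Benjamini-Hochberg adjustment over 8 such ratios of Marcks and Marcksl1). With 3 arrays against 3 this test could not pass the threshold whatever the ratios were. It therefore cannot decide whether the KO change differed between these Marcks probe sets.

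**Figure D3:**
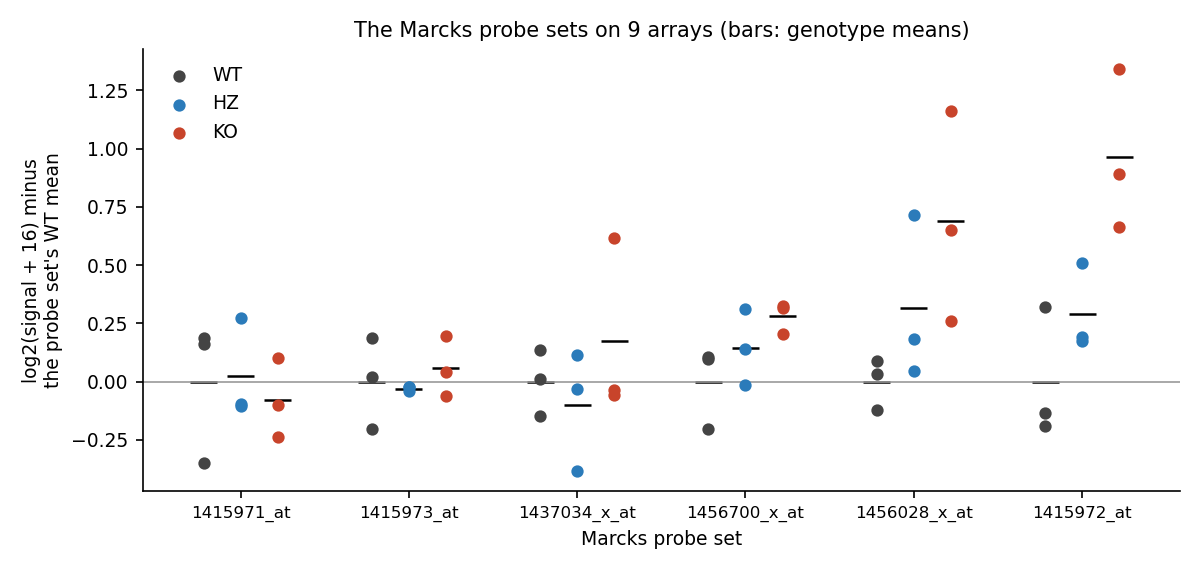
The 6 Marcks probe sets (horizontal axis) on the 9 arrays, as log2(signal + 16) minus the WT mean of the same probe set (vertical axis), with 1 point per array coloured by genotype and bars for the genotype means. The KO points of 1415972_at lie above all WT and HZ points, with a mean of 0.97, whereas those of 1415971_at and 1415973_at are spread around the WT mean at -0.08 and 0.06.

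Marcksl1 encodes the MARCKS-like protein, a smaller relative with the same myristoyl anchor and basic region. Its probe set 1435627_x_at read 1793, 1799 and 2164 in WT, 2355, 2921 and 2284 in HZ, and 3069, 2355 and 2487 in KO. All HZ and all KO arrays exceeded all WT arrays, while HZ and KO overlapped. The log2 change was 0.45 in KO (95% interval 0.11 to 0.79, limma adjusted p = 0.530) and 0.39 in HZ (interval 0.05 to 0.72, limma adjusted p = 0.789). The 2 changes share the WT arrays and are not separate evidence.

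On the brightest Marcksl1 probe set, 1437226_x_at, the signal was 9077, 9178 and 11547 in WT, 8605, 12106 and 11597 in HZ, and 12360, 12695 and 10992 in KO. WT 3 lay among the KO arrays, and the log2 change was 0.28 in KO (limma adjusted p = 0.665) and 0.11 in HZ. Probe set 1435415_x_at read 837, 640 and 905 in WT and 1205, 1012 and 866 in KO, with a log2 change of 0.37 (limma adjusted p = 0.728). Probe set 1415922_s_at differed from these, with a KO change of -0.04 (95% interval -0.52 to 0.43) and overlapping genotypes at 3336, 3103 and 4750 in WT and 4226, 4053 and 2614 in KO. The HZ changes of the last 2 probe sets and of 1437226_x_at turned in sign when arrays were weighted by quality. For Marcks and Marcksl1, 3 probe sets each carry the suffix _x_at, which marks probes that can bind other transcripts, and whether related transcripts add to their signal was not tested.

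Nrgn had the largest spread within genotypes of the 13 probe sets. Its signal was 1211, 1897 and 1986 in WT, 2648, 2733 and 1691 in HZ, and 3088, 1248 and 2015 in KO. The KO arrays held the highest of the 9 values and the second lowest, and all genotypes overlapped. Its residual SD of 0.49 on the log2 scale stood at the 95.1st percentile of all tested probe sets, whereas Basp1 stood at the 25.8th. The log2 change was 0.25 in KO (95% interval -0.39 to 0.90, limma adjusted p = 0.861) and 0.47 in HZ (interval -0.17 to 1.12, limma adjusted p = 0.802). Without KO 1 the KO change was -0.06.

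Counted over the 13 probe sets, Marcks 1456700_x_at, 1456028_x_at and 1415972_at and Marcksl1 1435627_x_at had every KO array above every WT array, which is 4 of 13, where 7.83% of all tested probe sets did. Gap43 was the 1 member with every KO array below every WT array, against 5.83% of all. Marcksl1 1435627_x_at was the 1 member with every HZ array above every WT array (8.51% of all), and none had every HZ array below (4.39%). Between KO and HZ, Marcks 1415972_at was the 1 member wholly above (6.67% of all) and Gap43 the 1 wholly below (7.35%). For the 12 probe sets of the related genes the KO against HZ changes ran from -0.22 to 0.67, with 9 above 0. Over all tested probe sets 46.6% were above 0 in KO against HZ, with a median of -0.02. Most of the 12 are probe sets of Marcks and Marcksl1, so they are not separate observations.

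Here each gene stands for its brightest probe set. For Marcks and Marcksl1 these were 1456700_x_at and 1437226_x_at, both of the _x_at kind, and their signals followed each other over the arrays. Their 9 log2 values correlated at r = 0.83 (exact permutation p = 0.00382, 0.0229 adjusted over 6 pairs) and rho = 0.90 (exact permutation p = 0.00203, adjusted 0.0122). Without WT 1 and KO 2, the 2 arrays farthest from the median of Marcks, r was 0.80. With the genotype means subtracted r was 0.74, for which no p was computed. The permutations moved arrays across genotypes. Their p-values thus do not separate a genotype shift that both genes share from variation they share within genotypes. The Marcks probe set 1456700_x_at correlated at 0.75 with 1456028_x_at and 0.70 with 1415972_at. With 1437034_x_at, 1415973_at and 1415971_at it correlated at 0.22, 0.09 and -0.09. Whether the r of Marcks with Marcksl1 holds for their other probe sets was not tested. Basp1 and Marcks correlated at r = 0.78 (exact permutation p = 0.0152, adjusted 0.0457), but rho was 0.47 (exact permutation p = 0.213), and r was 0.39 without WT 1 and WT 3, so this relation rests on those arrays. With the genotype means subtracted its r over all 9 arrays was 0.75. The other 4 pairs of Basp1, Marcks, Marcksl1 and Nrgn did not pass, with adjusted permutation p-values of r from 0.467 to 0.796. The arrays share 1 scaling each, which all genes on an array have in common. For Gap43 no such r with the other members is given, since its KO arrays form a separate cluster.

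The genes most like each member were taken over 8498 other genes, as the highest and lowest r of log2 values on 9 arrays. Such values are extremes of a large set and describe these arrays only. Highest for Gap43 were Cldn10, a claudin of cell junctions, at r = 0.93, Arg2, the mitochondrial arginase, at 0.93 and Vcam1, an adhesion molecule, at 0.91. Arg2 had mean signals of 493 in WT, 418 in HZ and 239 in KO, and Cldn10 had 286, 245 and 159, a step like that of Gap43 which did not pass for either (limma adjusted p = 0.114 and 0.361). Lowest for Gap43 were Ipo9, an importin, at -0.98, Coro1c, an actin-binding coronin, at -0.97 and Eef2k, the kinase of elongation factor eEF2, at -0.94. Coro1c had 254 in WT, 265 in HZ and 368 in KO (limma adjusted p = 0.500). These r values mostly follow the gap between the KO arrays and the rest. With the genotype means subtracted the highest were Arap2, Mis12 and Cyb561, at 0.97, 0.97 and 0.96. The lowest then were Psors1c2, Prkca, a protein kinase C that phosphorylates GAP-43, and Txndc11, each at -0.97. None of the 6 genes first named recurred there.

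For Basp1 the highest were Camkk2, the calmodulin-dependent kinase kinase, at 0.97, Gpatch8 at 0.94 and Dnajc5, a chaperone of synaptic vesicles, at 0.93, and the lowest were Ibtk, Snrnp27 and Xpa, from -0.95 to -0.92. Marcks was most like Ywhaz, a 14-3-3 protein that binds phosphorylated partners, at 0.96, Aurkc at 0.94 and Ripor1 at 0.93, and least like Ctsh, Pmm1 and Tubgcp2, from -0.97 to -0.94. Marcksl1 was most like Zbtb18, a transcriptional repressor of developing cortex, at 0.97, Plagl1 at 0.95 and Tbca, a tubulin-folding cofactor, at 0.95. At its low end were BC003965, Uqcrc1 of respiratory complex III and Echs1 of fatty acid oxidation, from -0.95 to -0.91. Nrgn was most like Rbm19, Mbl2 and Obsl1, each at 0.93, and least like Rpl22l1, Notch4 and Rab3ip, from -0.95 to -0.92.

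Genes that act on or with these proteins were followed in 7 lists, and 0 of their tested members passed in KO against WT, HZ against WT or KO against HZ (limma, adjusted over all tested probe sets). In KO against WT 16 of the 132 tested genes were higher and 4 lower at an unadjusted p below 0.05, which is 15.2% where all tested probe sets had 8.03%. In HZ against WT 5 were higher and 1 lower, 4.55% against 6.22% of all, and in KO against HZ 8 and 3, 8.33% against 7.73%. The lists were chosen with earlier results of these data known, so a higher share in them is not a separate finding. Each listed gene also stands for its brightest probe set, whereas the share of all counts every tested probe set. The genes of these lists are not independent of each other, and no test of the lists was made. The 3 members of smallest p in KO against WT are named from each, and none of the named changes passed over all probe sets. Over all 8503 genes tested the median log2 change in KO against WT was 0.02, with 53.6% above 0. In HZ against WT the median over these genes was 0.04, with 56.7% above 0.

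Calmodulin, protein kinase C and the other kinases and phosphatases of the family had 20 tested genes, 10 above and 10 below 0 in KO (median 0.005). Csnk2a2, a catalytic subunit of casein kinase 2, which phosphorylates GAP-43, was 1.47-fold higher in KO (744 ± 136 in WT against 1109 ± 230, SD, limma adjusted p = 0.528), with 2 of its 5 probe sets in the opposite direction. Cdk5r1, the activator of the neuronal kinase Cdk5, was 1.36-fold higher (2425 ± 247 in WT, 3327 ± 561 in KO, limma adjusted p = 0.537), with its KO arrays all above WT. Camk2b, a calmodulin-dependent kinase, was 1.26-fold higher (limma adjusted p = 0.623). Calcium buffers and sensors had 12 tested genes, 4 above and 8 below 0 (median -0.07). Hpca, the calcium sensor hippocalcin, read 1586, 2054 and 1887 in WT, 2033, 2195 and 1833 in HZ and 1331, 1305 and 1391 in KO, with the KO arrays below the other 6 (log2 change -0.44, limma adjusted p = 0.518). Calb2, the calcium buffer calretinin, was 1.82-fold lower in KO, with WT 3 among the KO arrays (limma adjusted p = 0.580). Kcnip2, a channel-interacting calcium sensor, was 1.49-fold higher in KO (limma adjusted p = 0.537) and 0.65 higher in HZ on the log2 scale.

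Enzymes of lipid anchors and of phosphatidylinositol 4,5-bisphosphate had 20 tested genes, 12 above and 8 below 0 in KO (median 0.03). Zdhhc5, a palmitoyl transferase, read 194, 243 and 283 in WT, 332, 374 and 219 in HZ and 450, 354 and 438 in KO, all KO arrays above WT (log2 change 0.76, limma adjusted p = 0.460). Abhd17c, of a family of depalmitoylating enzymes, was 1.47-fold higher in KO (mean 522 in WT, 705 in HZ and 768 in KO, SD 95.6, 82.0 and 80.5, limma adjusted p = 0.502). Nmt1, the enzyme that attaches the myristoyl group, was 1.40-fold lower (1567 ± 185 in WT, 1302 ± 158 in HZ and 1117 ± 146 in KO, limma adjusted p = 0.518), with 1 of its 2 probe sets in the opposite direction. G proteins and their regulators had 12 tested genes, 7 above and 5 below 0 (median 0.10). Gnao1, the G protein subunit Go that GAP-43 is known to stimulate, read 2858, 2824 and 3830 in WT, 3455, 3415 and 3159 in HZ and 4364, 4039 and 4189 in KO, the KO arrays above the other 6 (log2 change 0.42, limma adjusted p = 0.518). Gng2 was 1.44-fold lower and Gnaz 1.41-fold higher (limma adjusted p = 0.612 and 0.622).

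Actin and its regulators and the membrane skeleton had 36 tested genes, 28 above and 8 below 0 in KO against WT (median 0.15), and 21 above and 15 below in HZ against WT (median 0.01). Msn, the membrane linker moesin, was 1.40-fold higher in KO (limma adjusted p = 0.588), Palm, a palmitoylated membrane protein, 1.44-fold (limma adjusted p = 0.615, 1 of 2 probe sets opposite) and Fscn1, the actin-bundling fascin, 1.21-fold (limma adjusted p = 0.687). The other growth cone and axon outgrowth proteins had 28 tested genes, 21 above and 7 below 0 in KO (median 0.07), against 10 above and 18 below in HZ (median -0.02). Sox11, a transcription factor of immature neurons, read 446, 260 and 433 in WT, 350, 447 and 307 in HZ and 1523, 626 and 770 in KO, the KO arrays above the other 6 (log2 change 1.25, limma adjusted p = 0.390). Dpysl5, a collapsin response mediator, was 1.41-fold higher (limma adjusted p = 0.518) and Tubb3, the neuronal beta tubulin, 1.26-fold (limma adjusted p = 0.548).

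RNA-binding proteins of the Gap43 transcript and their relatives had 4 tested genes, 3 above and 1 below 0 in KO. Elavl3, of the neuronal Hu family, was 1.29-fold higher (limma adjusted p = 0.586), Elavl2, also a Hu protein, 1.24-fold (limma adjusted p = 0.721) and Elavl1, the widely expressed Hu protein, 1.33-fold lower (limma adjusted p = 0.728).

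**Figure D4:**
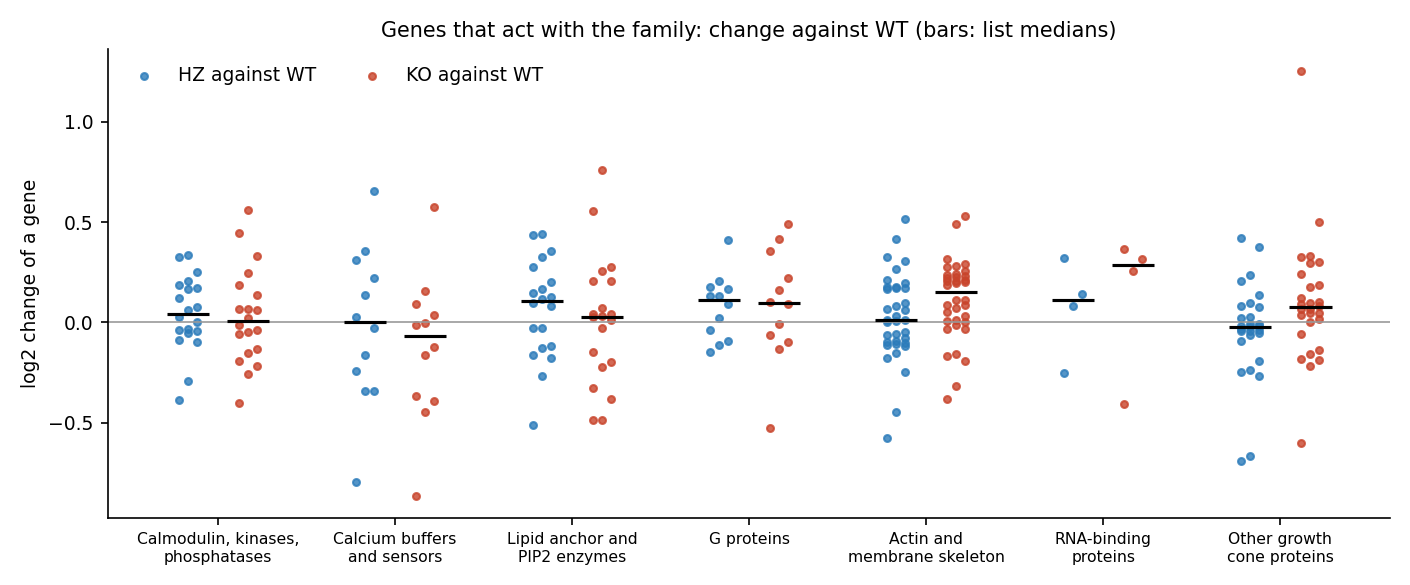
Log2 change against WT (vertical axis) of each tested gene in the 7 lists (horizontal axis), HZ in blue and KO in red, with bars for the list medians and a line at 0. The KO medians run from -0.07 for calcium buffers and sensors to 0.29 for the RNA-binding proteins, and Sox11 at 1.25 is the highest single point.

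Markers of other cell types were followed on the same arrays. Of 12 astrocyte markers on the array 10 were tested and 0 passed in KO against WT (limma, smallest adjusted p = 0.114). At an unadjusted p below 0.05 there were 5 of the 10, where all tested probe sets had 8.03%. Of the 10 tested, 9 were below 0, where 53.6% of all tested genes were above 0. The summed signal of the 12 was 16030 to 21251 in WT, 15557 to 16753 in HZ and 11154 to 15963 in KO. The KO range lay only just below the WT range, with the highest KO sum at 15963 and the lowest WT sum at 16030. The HZ range overlapped both. Single markers differed, with log2 changes in KO against WT of -1.04 for Gja1 and -0.38 for Glul. Aqp4 had -0.03, and Gfap, which was above 0, had 0.11. All 4 tested microglial markers of 12 on the array were below 0 in KO, with summed signals of 1868 to 3818 in WT, 1803 to 2327 in HZ and 1608 to 2049 in KO. The layer IV markers, 7 on the array, summed to 3012 to 3709 in WT, 3881 to 4504 in HZ and 2257 to 3355 in KO, with 3 of 6 tested above 0, and the pan-neuronal markers to 16864 to 20879, 16797 to 21364 and 14091 to 21567. Their part in the changes of the 13 probe sets was not tested.

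In all marker lists other than that of astrocytes, the summed signals of WT and KO overlapped. In KO against WT 4 of 9 tested interneuron markers were above 0, as were 2 of 6 of deep layers, 2 of 3 of thalamus and striatum, 5 of 8 of oligodendrocytes and 2 of 10 of endothelial and mural cells. At an unadjusted p below 0.05, 3 of 10 tested pan-neuronal markers were higher in KO and 2 of 8 oligodendrocyte markers lower. Layer IV and interneuron markers each had 1 higher and 1 lower, and microglial markers had 1 lower. The other tested lists, astrocytes aside, had 0. None of the 3 red blood cell markers on the array reached the filter, with summed signals of 126 to 399 over all arrays.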

How the data were processed

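Per the labels' protocols, total RNA of layer IV of the barrel cortex went through 2 cycles of cDNA synthesis and a biotin label. Each array is 1 mouse, per the labels. The deposited values are linear intensities of 22690 probe sets which, per the submitters' processing notes, the authors made in Affymetrix Expression Console by MAS5. Their versions are not given in the sources used. The trimmed mean of every array, 2% taken off each end, was 500.2, so the arrays had been scaled to 1 level, which takes the bulk of transcripts to be alike.

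Here log2(signal + 16) was taken, which understates the change of dim probe sets. Of the probe sets other than the 64 controls, the upper 60% by mean log2 value were kept (13576, 8503 genes). In R 4.3.3, limma 3.58.1 fitted genotype to the 9 arrays (lmFit, then eBayes on the contrasts, with an intensity trend and 6 residual degrees of freedom), with Benjamini-Hochberg adjustment over all kept probe sets and a threshold of 0.05. Tests were 2-sided. HZ was also set against the midpoint of WT and KO in the same fit. Correlations between members, their permutation tests and the motif counts used Python 3.11.15. The other correlations and permutation tests used R. The fit was tested on simulated data. Alternatives changed the pseudocount, filter, scaling, intensity trend, array weights, replicate number and 3'/5' ratio as terms, and left out each array.

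Gene symbols came from the platform annotation, where 20393 had 1 gene symbol, 691 several and 1555 none. Those with several were not named. In the lists a gene stands for its brightest probe set. The text names all 5 members on all their probe sets, the 3 genes of highest and the 3 of lowest r for each, and the 3 of smallest p in each list. The members and lists were chosen with earlier results of these data known. Same-numbered arrays of different genotypes correlated between -0.255 and 0.111 in their deviations, and other arrays of different genotypes between -0.153 and 0.204. The numbers thus showed no pairing of the mice, though such correlations cannot exclude one. Scan dates and the probes' genome build were not used here.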

Additional observations from a re-analysis of the deposited data

How the results depend on the processing

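The number of probe sets that passed limma's adjusted threshold in KO against WT went from 1 to 0 without the filter or without the intensity trend, and to 5 with array weights. In KO against HZ it went from 1 to 0 without the filter, with quantile normalization, with arrays set to 1 median or without the trend, and to 3 with a term for the 3'/5' ratio. In HZ against WT it went from 0 to 3 with array weights. Leaving out 1 array at a time gave 0 to 2 in all 3 comparisons and also in HZ against the midpoint. Whether the replicate numbers pair the mice could not be told from the arrays. With the replicate number as a block the counts were 1 in KO against WT, 0 in HZ against WT and 2 in KO against HZ, and the Gap43 changes were -1.95, -0.13 and -1.82, with the same calls for Gap43.

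Gap43 in KO against WT no longer passed without the filter (-1.95, limma adjusted p = 0.204) or without the trend (-1.95, 0.0824), and ran from -2.20 to -1.72 with 1 array left out. In KO against HZ it no longer passed without the filter (-1.82, limma adjusted p = 0.287), with quantile normalization (-1.84, 0.0782), with arrays set to 1 median (-1.79, 0.0879) or without the trend (-1.82, 0.144), and ran from -2.08 to -1.59 with 1 array left out. Without the filter more probe sets are tested. For the other settings the cause was not tested.

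Signs turned in 24 of 551 recomputed values of single members, in 12 of 29 results, none of them past the threshold. Many of the 551 could not turn. The filter, the intensity trend and the replicate block leave the log2 change as it is. So does leaving out an array of a genotype that is not in the comparison. With array weights Marcks 1415973_at in KO against WT was -0.023, and in HZ against WT Marcks 1415971_at was -0.16, Marcksl1 1437226_x_at -0.013, 1415922_s_at -0.14 and 1435415_x_at -0.0089. In HZ against WT, Marcks 1415973_at was 0.0071 with quantile normalization and 1415971_at was -0.061 with arrays set to 1 median. With 1 array left out, KO against WT ran from -0.045 to 0.15 for 1415973_at, -0.25 to 0.015 for 1415971_at, -0.047 to 0.29 for 1437034_x_at, -0.17 to 0.18 for Marcksl1 1415922_s_at and -0.064 to 0.58 for Nrgn. HZ against WT ran from -0.27 to 0.090 for Gap43, -0.13 to 0.063 for 1415973_at, -0.15 to 0.12 for 1415971_at, -0.21 to 0.042 for 1437034_x_at, -0.068 to 0.30 for 1415922_s_at and -0.0082 to 0.41 for 1435415_x_at. Scaling moved the median of all probe sets by less than 0.1 on the log2 scale. With arrays set to 1 median, that of HZ against WT went from 0.031 to -0.055. Such a move is not small beside many of the HZ changes given here. The 3 arrays per genotype limit how small a change could be resolved.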
